A study of Mus musculus with 24 samples.

Results

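Of the 26034 genomic regions that carried a peak of histone H3 acetylated at lysine 9 (H3K9ac) in at least 1 of 8 peak lists, 741 had a peak in all 4 lists of isolate pair 6 and in none of the 4 lists of isolate pair 4. These 741 regions, 2.85% of the total, are called pair 6 only regions here. They were chosen by the presence of peaks alone: peaks of the 8 lists were merged wherever they shared at least 1 bp, and each merged region was scored as present or absent in each list. The contrast between the isolate pairs is therefore how the regions were picked, and it is described here without a test.

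The study asked how loss of Gcn5 alters the genomic distribution of H3K9ac early in differentiation. All libraries came from embryoid bodies at day 5, balls of differentiating cells grown from mouse embryonic stem cells, on a C57BL/6 background. Clones 6_C4 and 4_C2 were Gcn5-/- and are called null, and clones 6_1 and 4_1 were Gcn5 fx/fx, homozygous for a floxed allele of the gene. Clones 6_C4 and 6_1 form pair 6, clones 4_C2 and 4_1 form pair 4, and each clone gave 2 replicate H3K9ac libraries. Each genotype of a pair is thus 1 clonal line, so genotype and clone cannot be told apart within a pair. Nothing in the labels says how the pairs differ other than by isolate. The series has 24 samples, and its 16 samples of input DNA or total H3 were left aside.

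H3K9ac is laid down by acetyltransferases such as Gcn5, which is encoded by Kat2a, and it marks active promoters and many active enhancers. Promoters of widely expressed genes are usually CpG-rich and acetylated in most cell types, whereas enhancers lie within or between genes and are acetylated in the cells that use them. In mouse embryonic stem cells, pluripotency factors such as Nanog, Sox2 and Esrrb are themselves controlled by clusters of enhancers, and these lose acetylation as the cells differentiate.

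The deposited lists give the coordinates of each peak and nothing on its height, so the only measurement per region was its covered length, the number of base pairs under peaks in a library. The lists of pair 6 held 18932 and 17849 peaks for 6_C4 and 20809 and 18477 for 6_1. Those of pair 4 held 14947 and 12041 for 4_C2 and 15315 and 13260 for 4_1, fewer than any pair 6 list. Covered length was 36.5 to 44.3 Mb in pair 6 and 21.8 to 31.5 Mb in pair 4. Sequencing depth is unknown, and its part in the difference in list length was not tested. With each list limited to its 12041 widest peaks, 236 regions were found in pair 6 only and 138 in pair 4 only, of 17070, and 139 of the 741 regions overlapped that set of 236. Kat2a had a peak at an end, meaning within 1000 bp of an annotated end of the gene, in all 8 lists, which does not check the genotype labels, since a peak at a gene end says nothing about deleted exons.

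Several pair 6 only regions lay over or beside microRNA genes, short RNAs that pair with target transcripts through the seed at bases 2 to 8. The mature sequences of 3 such clusters are shown because their regions are described further on: Mir290a to Mir293, a cluster known for its abundance in embryonic stem cells; Mir141 with Mir200c, members of the epithelial miR-200 family; and Mir182 with Mir96 and Mir183. Sequences are from RefSeq (GRCm38.p6), 5′ to 3′, with the seed in capitals.
miR-290a-3p: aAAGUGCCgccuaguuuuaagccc
miR-291b-3p: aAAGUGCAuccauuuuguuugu
miR-290a-5p: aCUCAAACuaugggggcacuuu
miR-292a-5p: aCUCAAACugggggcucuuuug
miR-293-5p: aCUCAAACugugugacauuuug
miR-141-3p: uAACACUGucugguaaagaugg
miR-200c-3p: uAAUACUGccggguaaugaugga
miR-182-5p: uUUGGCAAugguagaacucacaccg
miR-96-5p: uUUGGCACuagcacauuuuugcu
miR-183-5p: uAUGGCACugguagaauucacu
The 5p arms of miR-290a, miR-292a and miR-293 share the seed CUCAAAC, and the other 7 each have a seed of their own among these 10.

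Pair 6 only regions also held annotated starts of genes that had no peak at either end in any pair 4 list. The promoters of 3 such genes are shown because their regions are described further on: Trim67, a tripartite motif gene of the nervous system, Wnt7a, a Wnt ligand, and Olig2, a transcription factor of motor neuron and oligodendrocyte progenitors. Each sequence runs from 250 bases before to 50 bases after the RefSeq start, 5′ to 3′ on the gene's own strand, on GRCm38.p6: chr8:124792769-124793068 on the plus strand for Trim67, chr6:91411304-91411603 on the minus strand for Wnt7a and chr16:91225300-91225599 on the plus strand for Olig2. Capitals mark matches to the letters GGGCGG of the GC box, to the letters CCAAT of the CCAAT box and to the letters TATAAA of the TATA box. They were searched on both strands, and adjoining or overlapping matches run together.
Trim67: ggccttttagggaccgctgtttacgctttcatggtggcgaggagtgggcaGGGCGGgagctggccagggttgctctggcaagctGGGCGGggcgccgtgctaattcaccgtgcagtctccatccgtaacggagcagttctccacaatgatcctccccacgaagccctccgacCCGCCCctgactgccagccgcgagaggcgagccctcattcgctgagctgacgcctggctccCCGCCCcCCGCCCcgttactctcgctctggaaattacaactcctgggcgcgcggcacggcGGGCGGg
Wnt7a: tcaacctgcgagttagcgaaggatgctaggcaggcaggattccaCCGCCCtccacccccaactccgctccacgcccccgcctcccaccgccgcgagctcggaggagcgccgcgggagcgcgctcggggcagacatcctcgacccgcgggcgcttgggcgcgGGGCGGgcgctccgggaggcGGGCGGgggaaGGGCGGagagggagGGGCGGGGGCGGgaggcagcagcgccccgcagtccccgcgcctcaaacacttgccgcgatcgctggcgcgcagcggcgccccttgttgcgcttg
Olig2: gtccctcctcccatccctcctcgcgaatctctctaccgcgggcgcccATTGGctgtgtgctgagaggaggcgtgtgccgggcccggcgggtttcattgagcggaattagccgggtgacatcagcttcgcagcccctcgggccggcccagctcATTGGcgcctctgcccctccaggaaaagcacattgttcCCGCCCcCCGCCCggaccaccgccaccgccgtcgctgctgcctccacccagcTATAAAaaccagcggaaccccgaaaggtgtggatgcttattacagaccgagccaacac
All 3 are CpG-rich, with an observed over expected CpG ratio of 0.833 for Trim67, 0.97 for Wnt7a and 0.815 for Olig2.

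The reverse pattern was rare in the full lists. There, 10 regions (0.0384% of all) had a peak in all 4 pair 4 lists and in none of pair 6. Every pair 4 list was shorter than every pair 6 list. With lists of equal length the counts were closer, 138 in pair 4 only and 236 in pair 6 only, of 17070. In the full lists, regions in all 8 lists numbered 10171, and 3039 were in all 4 pair 6 lists and in 1 to 3 pair 4 lists. These 3039 are called partly shared regions. Just outside the rule lay 959 regions with a peak in 3 pair 6 lists and no pair 4 list, and 702 regions with a peak in all 4 pair 6 lists and 1 pair 4 list. In the 6_1 libraries the median covered lengths were 1700 and 1753 bp for the pair 6 only regions, 1312 and 1331 bp for the 959 regions and 1605 and 1629.5 bp for the 702. Leaving out a library loosens the rule, so the number of pair 6 only regions can only rise. It would be 1261 without 6_C4 replicate 2, 1167 without 4_1 replicate 1, and 775 to 917 without any other single library.

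The pair 6 only regions lay mostly away from the ends of genes. Of the 741, 331 (44.7%, exact 95% interval 41.0 to 48.3) lay within a protein-coding gene more than 1000 bp from either end, and 229 (30.9%, 27.6 to 34.4) lay outside genes. The remaining 181 (24.4%, 21.4 to 27.7) came within 1000 bp of an annotated end of a gene. Among all 26034 regions the shares were 34.0% inside, 15.7% outside and 50.3% at an end, and among regions in all 8 lists 85.6% were at an end. Partly shared regions stood between, with 26.6% inside, 17.5% outside and 55.9% at an end. The position was not particular to the pair 6 only regions. Regions in 3 pair 6 lists and no pair 4 list had 49.1% inside, 28.4% outside and 22.5% at an end. Regions in 1 list had 62.8% inside, 23.3% outside and 13.9% at an end. The intervals cover counting error only and neighbouring regions are not independent.

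**Figure D1:**
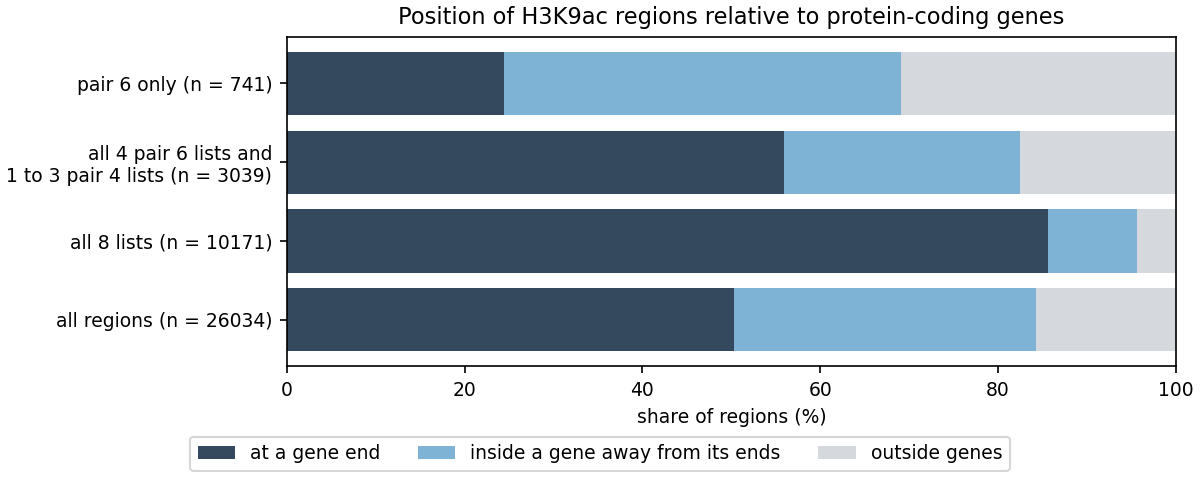
Share of regions (%, horizontal axis) by position (at the end of a gene, elsewhere within one, or outside genes) for 4 sets of regions. Gene ends take 24.4% of the pair 6 only regions, against 55.9% of the partly shared regions and 85.6% of the regions in all 8 lists.

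Where strand was known, 95 of the regions reached the start of a gene and 58 its far end. An annotated transcription start lay within 122 of 721 pair 6 only regions (16.9%), against 43.2% of all regions, 48.3% of partly shared regions and 78.6% of regions in all 8 lists. For regions in 3 pair 6 lists and no pair 4 list the share was 16.4%. The regions within genes had a median distance of 12 kb from the nearest start, and those outside genes 12.8 kb. Shares and distances to starts leave out chromosome 18, for which no starts were used.

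By the rule, no pair 4 peak overlapped these regions, so only their distance from shared acetylation is described. The median distance to the nearest region in all 8 lists was 17.2 kb, against 35.3 kb for partly shared regions. It was 18.6 kb for regions in 3 pair 6 lists and no pair 4 list, and 14.9 kb for regions in 1 list. The nearest peak of any pair 4 list lay a median of 10.9 kb away, and 71 of the 741 regions (9.58%) had one within 1000 bp. For those 71 an extension of a shared domain and a separate site cannot be told apart from coordinates.

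The regions were narrower than those in all 8 lists, but not narrower than regions at large. After merging, their median width was 2127 bp, against 1870 bp for all regions and 2938 bp for regions in all 8 lists. It was 1716 bp for regions in 3 pair 6 lists and no pair 4 list, and 1103 bp for regions in 1 list. Median covered length in the pair 6 only regions was 1461 and 1261 bp in 6_C4 and 1700 and 1753 bp in 6_1. Partly shared regions were close to this, with 1528 and 1435 bp in 6_C4 and 1653 and 1710 bp in 6_1, and regions in all 8 lists were wider in every pair 6 library, with 2408 and 2356 bp in 6_C4 and 2545 and 2654 bp in 6_1. Averaged over the 4 libraries, the 741 regions ranged from 410 to 8202 bp, with quartiles of 1308 and 2009 bp, and 47 exceeded 3000 bp.

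**Figure D2:**
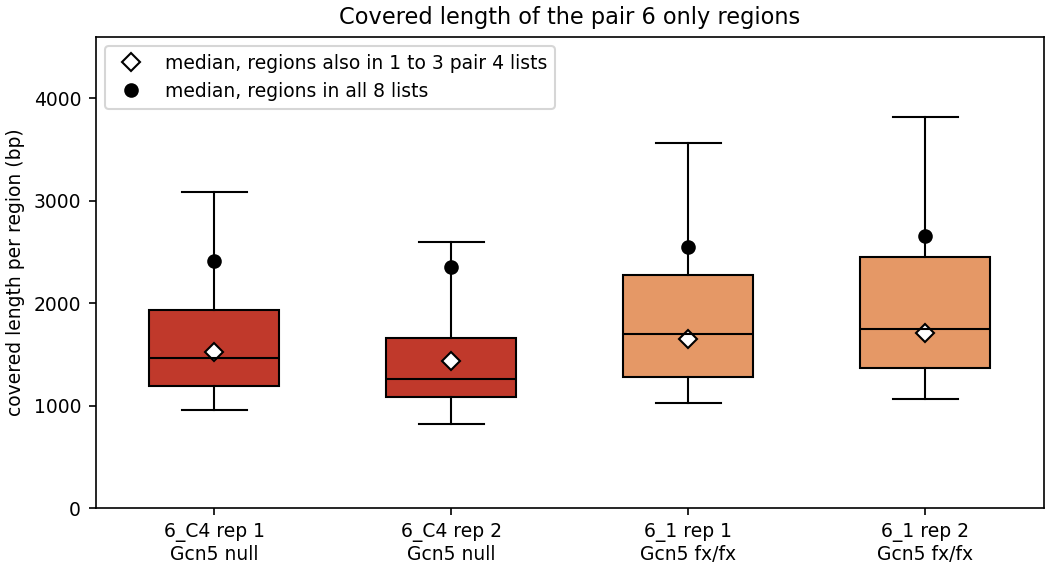
Covered length per region (bp) of the 741 pair 6 only regions in each pair 6 library, as boxes from the first to the third quartile with a line at the median and whiskers from the 5th to the 95th percentile, with the medians of the partly shared regions (diamonds) and of the regions in all 8 lists (circles). The pair 6 only medians run between 1261 and 1753 bp, and the circles between 2356 and 2654 bp.

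Covered lengths varied between libraries. The bases covered in all 4 lists had a median of 1058 bp, or 53.7% of the merged region, and 28 regions had no base in common to all 4. Over the 741 regions, Spearman correlations of covered length between pair 6 libraries were 0.502 to 0.684, against 0.891 to 0.914 over the other 13210 regions in all 4 lists. These are descriptions over regions of the same libraries, and the pair 6 only regions also span a narrower range of widths.

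Genes of the pluripotent state and of the epiblast that follows it had pair 6 only regions nearby in a larger share than genes at large. Of 21887 protein-coding genes, 780 (3.56%) had such a region within 10 kb of their span or inside it. Among 21 pluripotency genes there were 6 (28.6%), namely Nanog, Sox2, Esrrb, Prdm14, Dppa3 and Fgf4. Among 16 epiblast genes there were 6 (37.5%), namely Otx2, Dnmt3a, Zic2, Foxd3, Lef1 and Etv5. These lists are small and were drawn up with earlier results of these data known, and the distance was chosen after the data were seen. Without 4_1 replicate 1 the pluripotency count was 10 of 21, beside 5.68% of all genes. With lists of equal length it was 4 in each list, beside 1.18% of all genes.

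Nanog, a homeodomain factor of the pluripotent state, had the region at its far end (chr6:122714347-122717067). It was covered over 2247 and 2387 bp in 6_C4 and over 1661 and 2721 bp in 6_1, and, as for every pair 6 only region, over 0 bp in each pair 4 library. The start of Nanog was not specific to pair 6, since 3 of the 4 pair 4 lists had a peak at an end of the gene. About 7 kb upstream of Sox2, which partners the factor Oct4, lay a smaller region (chr3:34641643-34642994) with 1300 and 1056 bp in 6_C4 and 1135 and 1282 bp in 6_1. The Sox2 gene itself lay under a region of all 8 lists. Upstream of Fgf4, the ligand that drives stem cells towards differentiation, the region at chr7:144855800-144858409 had 2130 and 1726 bp in 6_C4 and 2427 and 2491 bp in 6_1. The Fgf4 start had a peak in 2 of the 4 pair 4 lists.

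**Figure D3:**
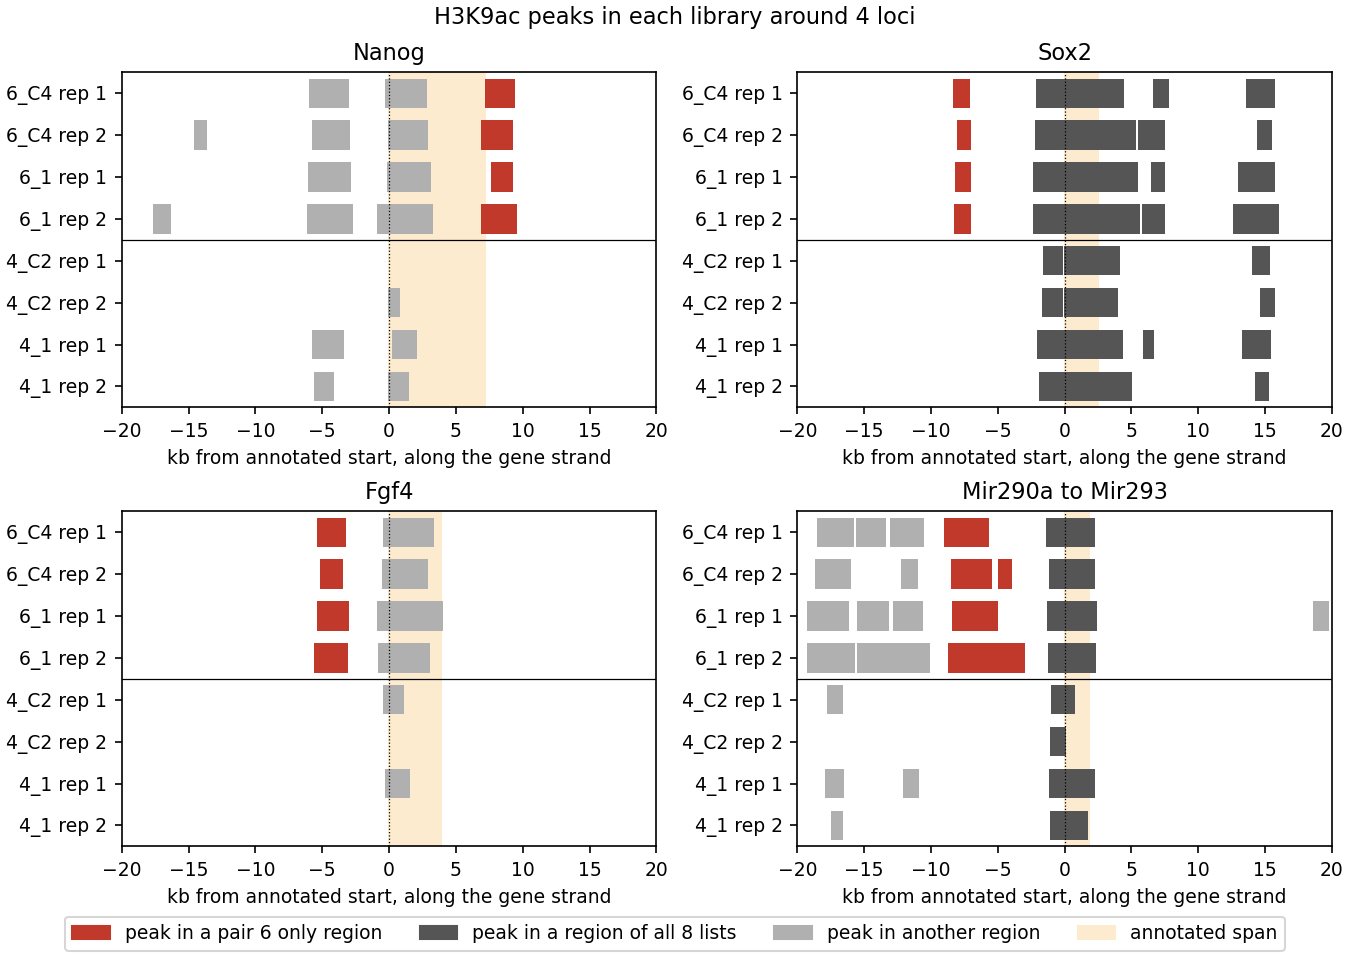
H3K9ac peaks of each of the 8 libraries around Nanog, Sox2, Fgf4 and the Mir290a to Mir293 cluster, against distance from the annotated start in kb along the gene's strand. Peaks of pair 6 only regions (red) lie beyond the far end of Nanog and upstream of the other 3 loci, where none of the 4 pair 4 libraries has a peak.

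Dppa3, a maternal factor of naive cells and germ cells, differed from these in having no peak at either end in any pair 4 list. Its region (chr6:122626174-122629063) had 2151 and 1312 bp in 6_C4 and 2791 and 2076 bp in 6_1, and it was at the gene rather than distant from it. Esrrb, an orphan nuclear receptor, had the region inside the gene at 47.5 kb from the nearest start, with 1340 and 1320 bp in 6_C4 and 1192 and 2140 bp in 6_1. Esrrb had no peak at its ends in any of the 8 lists. Prdm14, a repressor of epiblast genes, had a region outside the gene with 1466 and 2709 bp in 6_C4 and 2381 and 2623 bp in 6_1.

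Otx2, which directs the exit towards the epiblast, had the region just upstream of its start, with 1078 and 1016 bp in 6_C4 and 1757 and 1741 bp in 6_1. Both 6_C4 values lay below both 6_1 values there, as in 44.4% of the 741 regions and 41.8% of all regions in the 4 pair 6 lists. Etv5, an effector of FGF signalling, had 2 regions inside the gene: 1 had 2678 and 1532 bp in 6_C4 and 2862 and 3046 bp in 6_1, and the other had 1867 and 1916 bp in 6_C4 and 2315 and 2988 bp in 6_1. The de novo DNA methyltransferase Dnmt3a and the Wnt effector Lef1 each had 1 such region, and so did the factors Zic2 and Foxd3, with means over the 4 libraries of 1361 to 2506 bp. Of the 6 epiblast genes, Dnmt3a had no end peak in any list. Still, 2 regions of all 8 lists lay inside Dnmt3a or within 10 kb of its span. Foxd3 had an end peak in 1 pair 4 list, Otx2 in 2, and Zic2, Lef1 and Etv5 in all 4.

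The same lists can be read over all peaks. Of the 21 pluripotency genes, 17 to 19 had a peak at an end in the pair 6 libraries and 9 to 16 in the pair 4 libraries. Of the 16 epiblast genes, 14 to 15 had one in pair 6 and 9 to 14 in pair 4. Over all protein-coding genes the shares were 56.3 to 59.0% in pair 6 and 47.5 to 55.5% in pair 4. In 4_1 replicate 1 the counts were 16 and 14, the highest of pair 4 in both lists. Partly shared regions also lay near pluripotency genes, 11 of the 21 (52.4%) against 16.1% of all genes. This was not particular to pluripotency, since the share was 54.5% for neural crest, 53.3% for axon guidance and 50% for endoderm genes, and 31.2% for epiblast genes. In bulk cells, a smaller number of cells with a mark and less of the mark per cell cannot be told apart.

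Markers of differentiated lineages had few pair 6 only regions. There was 1 of 30 genes for primitive streak and mesoderm (Pdgfra), 1 of 22 for endoderm (Gata4), 1 of 33 for the neural list (Olig2), 1 of 22 for blood and endothelium (Pecam1) and 1 of 11 for neural crest (Foxd3, also an epiblast gene). Fibroblast and extracellular matrix genes had 0 of 22, trophoblast genes 0 of 12 and germ cell genes 0 of 11. Each share was close to the 3.56% of all genes or rested on 1 gene. Peaks at gene ends were found for 17 to 23 of 30 mesoderm genes in pair 6 and 10 to 20 in pair 4. For 33 neural genes the counts were 21 to 24 and 10 to 20, and for 22 endoderm genes 11 to 12 and 3 to 11. They were 5 to 6 and 2 to 4 of 11 for neural crest, and 5 to 10 and 2 to 6 of 22 for blood and endothelium. Fibroblast genes had 7 to 11 and 4 to 9 of 22, trophoblast genes 4 to 8 and 1 to 5 of 12. Germ cell genes had 1 to 3 and 0 to 3 of 11. Of all protein-coding genes, 56.3 to 59.0% had one in pair 6 and 47.5 to 55.5% in pair 4.

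Olig2 had the region across its start (chr16:91224829-91227840), with 2289 and 1167 bp in 6_C4 and 2868 and 2960 bp in 6_1. This is the promoter printed above, and Olig2 had no end peak in any pair 4 list. Pdgfra, the receptor of platelet-derived growth factor A, had one of the wider regions inside a gene, 0.146 kb from an annotated start, with 3437 and 2559 bp in 6_C4 and 4151 and 3180 bp in 6_1, and no end peak in any list. Gata4, a regulator of endoderm and heart, had 1383 and 1384 bp in 6_C4 and 1378 and 1553 bp in 6_1. Pecam1, an endothelial adhesion molecule that stem cells also carry, had a region outside the gene, with 2401 and 1954 bp in 6_C4 and 2383 and 2270 bp in 6_1.

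**Figure D4:**
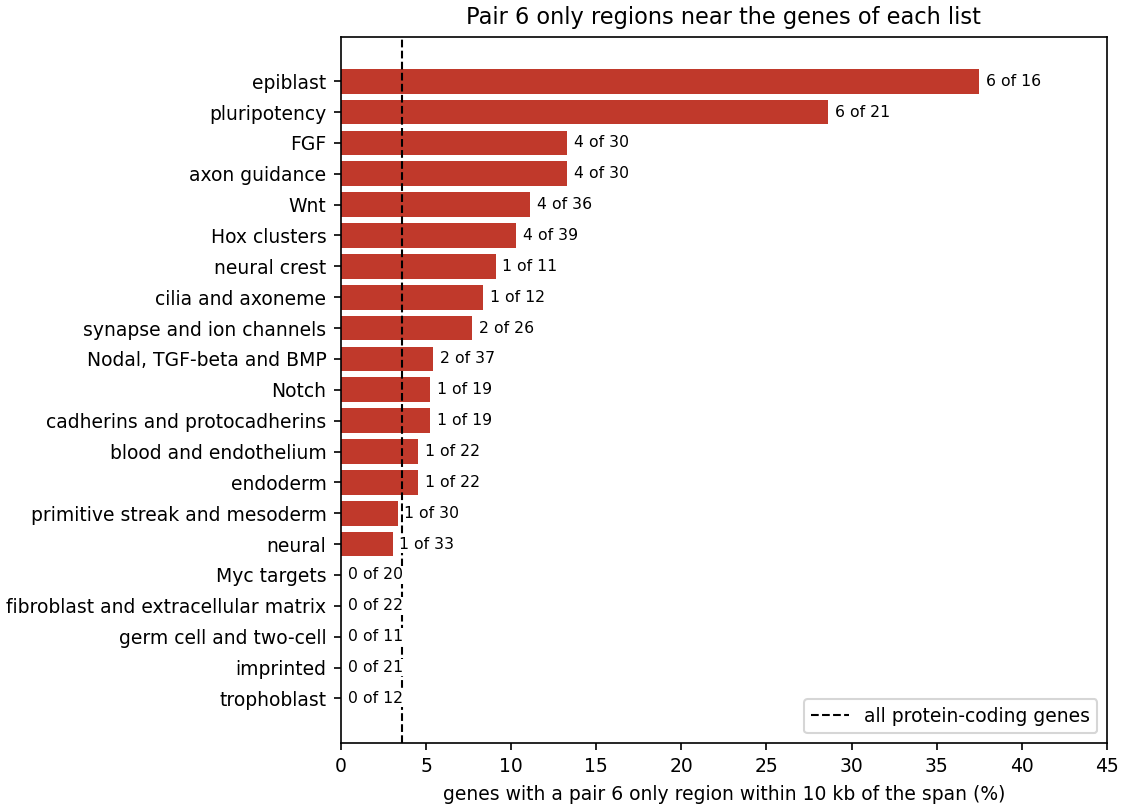
Share of the genes in each of 21 lists (%, horizontal axis) with a pair 6 only region within 10 kb of the gene or inside it, with counts beside the bars and the share of all protein-coding genes as a dashed line at 3.56%. The epiblast and pluripotency lists reach 37.5% and 28.6%, and 5 lists are at 0.

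Among signalling lists, 4 of 30 FGF pathway genes had such a region (13.3%): the ligand Fgf4, the inhibitors Spred2 and Dusp4, and the effector Etv5. Fgf4 was already counted as a pluripotency gene and Etv5 as an epiblast gene. The region inside Dusp4, a MAP kinase phosphatase, had 2658 and 1051 bp in 6_C4 and 2752 and 3009 bp in 6_1. Of 36 Wnt genes there were 4 (11.1%): the ligands Wnt7a and Wnt11 and the nuclear effectors Lef1, already counted as an epiblast gene, and Tcf7l1. The Wnt7a region lay across the printed promoter and had 1429 and 1371 bp in 6_C4 and 1491 and 1475 bp in 6_1. Wnt11 had 1313 and 1235 bp in 6_C4 and 1208 and 1621 bp in 6_1, over an annotated start inside the gene, and its ends had peaks in all 4 pair 4 lists.

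Of 37 genes for Nodal, TGF-beta and BMP signals there were 2 (5.41%), both acting in the Nodal pathway. The ligand Nodal had 1515 and 902 bp in 6_C4 and 1147 and 1999 bp in 6_1 just upstream of its start. The Nodal inhibitor Lefty2 had 1842 and 1831 bp in 6_C4 and 2695 and 3282 bp in 6_1, and no end peak in any pair 4 list. A pair 4 peak nevertheless lay 1162 bp from the Lefty2 region. The Notch list had 1 of 19, the receptor gene Notch1, described below. Axon guidance genes had 4 of 30 (Plxna1, Unc5b, Ephb2 and Efnb2), in a list of long genes with a median span of 193 kb against 17.2 kb for all genes. Synapse and ion channel genes, with a median span of 158 kb, had 2 of 26 (Nrxn2 and Cacna1a).

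The 4 Hox genes within reach of a pair 6 only region, Hoxa3, Hoxa6, Hoxa7 and Hoxa9 of 39, all owed it to 1 region at Hoxa7 (chr6:52216702-52218190), with 870 and 746 bp in 6_C4 and 1284 and 1489 bp in 6_1. The cell adhesion gene Cdh1, which encodes E-cadherin, had a wide intragenic region with 3331 and 2578 bp in 6_C4 and 4303 and 4941 bp in 6_1, the only one among 19 cadherins and protocadherins. The cilia list had 1 of 12 (Rfx2), with a mean of 1248 bp. Imprinted genes had 0 of 21 and targets of Myc 0 of 20. At gene ends, peaks were found for 18 to 19 of 20 Myc targets in pair 6 and for 16 to 19 in pair 4.

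At gene ends, 204 of 21887 genes had a pair 6 only region (0.932%). For 132 of the 204 no pair 4 list had a peak at either end, and for 50 all 4 pair 4 lists had one at the other end or beside the region. The widest at an end was at the far end of Notch1 (chr2:26457624-26462187), with 4171 and 3354 bp in 6_C4 and 4564 and 4043 bp in 6_1. Notch1 was one of the 50. Folr1, the folate receptor 1 gene, had 3688 and 3500 bp in 6_C4 and 4737 and 3597 bp in 6_1 (chr7:101865568-101870304), with a peak within 1000 bp of an end in 2 pair 6 lists and in no pair 4 list. Trim67, whose promoter is printed above, had 3498 and 3563 bp in 6_C4 and 3883 and 3472 bp in 6_1 (chr8:124791646-124795528), and the nearest pair 4 peak was 39049 bp away.

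Others among the 10 widest lay at Scd2, a fatty acid desaturase, at Brd3, a reader of acetylated histones, at Enah, an actin regulator, at Slc8b1, a mitochondrial sodium and calcium exchanger, and at Fbxo15, an F-box gene known as a marker of embryonic stem cells. Scd2 had 3001 and 2383 bp in 6_C4 and 4655 and 2978 bp in 6_1. Fbxo15 had 3815 and 1909 bp in 6_C4 and 3244 and 3711 bp in 6_1, and both genes had no end peak in pair 4. The libraries were not alike at every one of them: at Fblim1, a filamin-binding gene, they covered 1340 and 3369 bp in 6_C4 and 2626 and 7084 bp in 6_1, with no base common to all 4.

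Inside genes, the widest regions lay in Tecr, an enzyme of fatty acid elongation, Camsap3, which binds microtubule minus ends, Hsd17b14, a dehydrogenase, Brd1, a scaffold of acetyltransferase complexes, and Chd2, a chromatin remodeller. Camsap3 had 4238 and 3772 bp in 6_C4 and 5211 and 5419 bp in 6_1 (chr8:3595550-3600968). Chd2 had 3736 and 3302 bp in 6_C4 and 4720 and 3998 bp in 6_1 (chr7:73515402-73520128). Both 6_C4 values lay below both 6_1 values in each of these, as they did in 44.4% of the 741 regions and 41.8% of all regions in the 4 pair 6 lists. In Tecr the 4 libraries covered 6203 and 1743 bp in 6_C4 and 4840 and 6381 bp in 6_1, again with no base common to all 4.

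The widest pair 6 only region of all lay outside protein-coding genes (chr1:136669289-136678895), between Zfp281 and Nr5a2, which encode 2 regulators of the pluripotent state. It was covered over 8048 and 6452 bp in 6_C4 and over 8888 and 9420 bp in 6_1, and spanned 9607 bp after merging. Zfp281 lay 38.9 kb from it and Nr5a2 164 kb, and the nearest pair 4 peak was 16106 bp away. The next lay 2.57 kb from Tet1, the enzyme that oxidises methylated cytosine (chr10:62890038-62896510), with 5540 and 3163 bp in 6_C4 and 4725 and 5171 bp in 6_1. A region in all 8 lists lay 1321 bp from it. The others of the 5 widest lay between Atoh1 and Smarcad1, between Tnfsfm13 and Polr2a, and between AU018091 and Nlrp12, beside the Mir290a cluster.

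Of 1005 microRNA hairpins, 5 lay inside or across the edge of a pair 6 only region (0.498%) and 27 lay within 5 kb of one (2.69%), spread over 19 regions. Regions of any kind held 207 of the hairpins (20.6%), and pair 6 only regions were 2.85% of all regions. The region before the Mir290a cluster (chr7:3209593-3215630) had 3412 and 4100 bp in 6_C4 and 3467 and 5736 bp in 6_1, and ended 2996 bp before the Mir290a hairpin. The cluster itself also differed between the pairs in part. Its hairpins found within 5 kb of that region all lay under peaks in the 4 pair 6 lists. In pair 4, Mir290a lay under a peak in all 4 lists, Mir292 in 3, and Mir291b and Mir293 in the 2 lists of 4_1 and in neither of 4_C2.

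Mir141 and Mir200c lay inside a region at the facing ends of Phb2 and Ptpn6 (chr6:124717167-124721375), with 2234 and 2735 bp in 6_C4 and 3936 and 2598 bp in 6_1. Both hairpins lay under peaks in the 4 pair 6 lists and in no pair 4 list. A peak of pair 4 came within 110 bp of that region. At the Mir182 cluster there were 2 regions: 1 with 1157 and 2117 bp in 6_C4 and 3618 and 4608 bp in 6_1 (chr6:30158839-30163615), and 1 whose edge reached the Mir182 hairpin, with 1093 and 1812 bp in 6_C4 and 1378 and 1835 bp in 6_1 (chr6:30165964-30168638). Peaks covered part of the Mir182 hairpin only in 6_C4 replicate 2, and all of Mir96 and Mir183 in 6_C4 replicate 2 and 6_1 replicate 2. No pair 4 list had a peak over any of the 3. Mir671, inside a region at Chpf2 and Smarcd3, and Mir7229 complete the 5, with a peak over the hairpin in 3 and 4 pair 6 lists and in no pair 4 list. Coverage of a hairpin by a peak does not measure the microRNA.

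The starts that did lie in pair 6 only regions had promoters of mixed CpG content. These were 147 promoters of 126 genes, with a median observed over expected CpG ratio of 0.498 and quartiles of 0.286 and 0.729. The median was 0.653 over 1806 promoters in partly shared regions, 0.818 over 11113 in regions of all 8 lists and 0.199 over 17899 in no region. A ratio of 0.6 or more was held by 38.8% of the 147, against 35.8% of all 32851 promoters and 82.6% of those in regions of all 8 lists. The GC box was in 51% of the 147, against 35.7% of all promoters, CCAAT in 35.4% against 37.4%, and the TATA box in 8.16% against 13.6%. The E-box, searched as the letters CACGTG on both strands, was in 8.84% against 7.15% and the octamer, searched on both strands as the letters ATGCAAAT, in 2.04% against 1.74%. A match of these letters is not evidence of binding.

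The regions were spread over 474 windows of 1 Mb, of which 173 held at least 2. The fullest window held 7 regions, on chromosome 7 from 80 Mb, in and between Zfp710, Sema4b, Rccd1 and Iqgap1, among 58 regions of any kind. A window with 6 lay on chromosome 17 from 28 Mb, with Anks1, Fkbp5 and Bnip5. A window on chromosome 10 from 78 Mb, named after its values were seen, held 5 of its 25 regions at Aire, Dnmt3l and Ccdc105. Dnmt3l encodes the cofactor of de novo DNA methyltransferases and Aire a transcription factor known from the thymus. Neither gene had an end peak in any pair 4 list.

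The genes with the most pair 6 only regions, 3 each, included Fbxo36, Nod1, Aire, Ppp2r5c and Myo10. Aire reached this number over a span of 13.6 kb, with regions of 1198 and 907 bp in 6_C4 and 1186 and 1430 bp in 6_1 in the first, 1957 and 1222 bp in 6_C4 and 1498 and 1930 bp in 6_1 in the second. The third, with 1401 and 1078 bp in 6_C4 and 1343 and 1416 bp in 6_1, held the annotated start of Aire and lay at an end of the span of Dnmt3l. Myo10 reached it over 191 kb.

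Chromosome 11 held few of these regions. It had 26 of the 741 (3.51%), although 2729 of all regions (10.5%) were there. Of its 1168 regions in all 4 pair 6 lists, 2.23% were pair 6 only, against 5.31% over all chromosomes and 5.59% without chromosome 11. Chromosomes 6 and 8 had the highest shares, 7.26% and 7.22%. In the other direction, 590 of the 1512 regions with no pair 6 peak (39%) lay on chromosome 11. Chromosome 11 took 8.63 and 9.01% of peaks in 6_C4 and 8.59 and 8.63% in 6_1, against 12.1 and 11.1% in 4_C2 and 10.1 and 10.1% in 4_1. DNA copy number was not measured in these lists, and its part in these shares was not tested. The count of 26 of 741 would be 45 of 1261 without 6_C4 replicate 2 and 46 of 1167 without 4_1 replicate 1. With lists of equal length it would be 8 of 236.

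**Figure D5:**
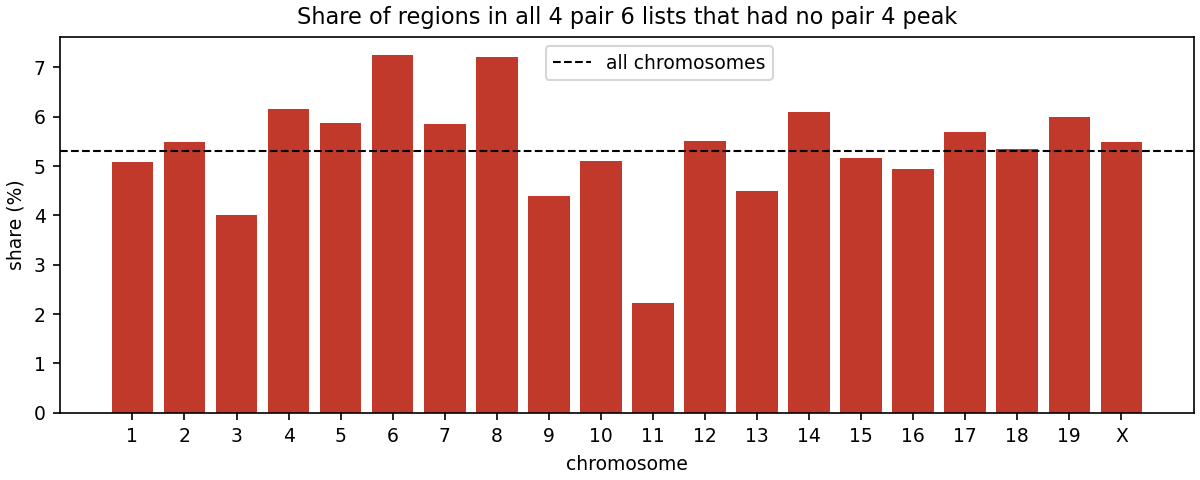
Pair 6 only regions as a share (%, vertical axis) of the regions in all 4 pair 6 lists on each chromosome, with the share over all chromosomes as a dashed line at 5.31%. Chromosome 11 is at 2.23% and chromosomes 6 and 8 are above 7%.

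Within pair 6, the width of these regions was compared between null and fx/fx embryoid bodies, a contrast that the choice of regions did not use. No region changed in width past the threshold: of 13951 regions in all 4 pair 6 lists, 0 (0%) were narrower and 0 (0%) wider in 6_C4 at a limma adjusted p under 0.05. The lowest adjusted p among the 741 was 0.416. Without adjustment, 538 of the 13951 regions (3.86%) were narrower and 251 (1.8%) wider, and of the 741 there were 95 narrower (12.8%) and 14 wider (1.89%).

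The pair 6 only regions leaned to the narrow side in 6_C4. Their log2 differences, 6_C4 minus 6_1 and centred on each library's median, had a median of -0.13, against 0.02 over all 13951, and 511 of the 741 (69%) were below 0, against 44.9% of all. The median was -0.03 for regions in 1 pair 4 list, -0.02 for 2, -0.0014 for 3 and 0.03 for all 4. In base pairs without centring, both 6_C4 values lay below both 6_1 values in 329 of the 741 (44.4%), beside 41.8% of all 13951 regions, and above in 18 (2.43%), beside 3.38%. The median of -0.13 leaned on 6_C4 replicate 2, without which it was -0.04. Without 6_C4 replicate 1 it was -0.20.

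Summed over the 741 regions, covered length was 1158 ± 123 kb in 6_C4 and 1464 ± 68.4 kb in 6_1 (SD, n = 2 each). The difference of -306.5 kb had a two-sided exact permutation p of 0.333, the smallest that 2 against 2 libraries allow. As a share of each list's whole covered length the regions took 3.05 ± 0.16% in 6_C4 and 3.32 ± 0.18% in 6_1.

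The regions with the lowest p were named by rule and none passed the adjustment. The lowest lay at the far end of Rasgrp2, an exchange factor for Ras family GTPases, and reached into the neighbouring presynaptic gene Nrxn2 (chr19:6416046-6419552), with 1174 and 1131 bp in 6_C4 and 2860 and 2888 bp in 6_1. Its log2 difference was -1.17 ± 0.10 (SE), for which limma gave an adjusted p of 0.416. Inside Spred2, an inhibitor of Ras and MAP kinase signalling (chr11:19986266-19990075), covered length was 1352 and 1316 bp in 6_C4 and 3726 and 3481 bp in 6_1, a log2 difference of -1.29 ± 0.11 (SE) with a limma adjusted p of 0.416. In each of these regions, both 6_C4 libraries lay well below both 6_1 libraries.

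In the other direction, a region between Ly86 and Rreb1 (chr13:37451572-37453450) had 1768 and 1784 bp in 6_C4 and 1094 and 1290 bp in 6_1, with a log2 difference of 0.72 ± 0.12 (SE) and a limma adjusted p of 0.421. Regions inside Myo18a and at the ends of Krit1 and Lrrd1 had log2 differences of 0.43 and 0.46. Among the 20 widest regions named by rule, the one between Tnfsfm13 and Polr2a had 3240 and 2746 bp in 6_C4 and 5351 and 5583 bp in 6_1, a log2 difference of -0.73 ± 0.12 (SE) with a limma adjusted p of 0.421. For the Notch1, Trim67 and Brd1 regions the log2 differences were -0.06 ± 0.15, 0.09 ± 0.13 and -0.01 ± 0.41 (SE).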

How the data were processed

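The authors deposited 1 peak list for each H3K9ac library, made per library and not from pooled replicates; its unit here is peak coordinates, and no p-value, height or score comes with them. Bowtie 1.1.2, MACS 1.4.2 and mm10 are named per the submitters' processing notes, while the sources used here do not give the peak threshold, control library or filters. Depth is unknown, and a longer list can come from deeper sequencing.

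Peaks overlapping by at least 1 bp were merged over the 8 lists, and covered length was the number of base pairs under peaks. Genes (21887 protein-coding), starts, promoters and microRNAs came from RefSeq tables of GRCm38.p6, the same primary assembly as mm10; the gene table has no strand, so ends were called start or far end from the promoter table. Width was tested with limma 3.58.1 (R 4.3.3) on log2 covered length centred on library medians over the 13951 regions in all 4 pair 6 lists, without replicate number in the model, with Benjamini-Hochberg adjustment at 0.05; the script was tested on simulated data. Single values used exact permutation tests. Nothing names separate cultures, so p-values describe the spread between libraries. Python 3.11.15, pandas 2.3.3, numpy 2.4.6, SciPy 1.17.1 and matplotlib 3.10.9 did the rest.

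The regions and the 21 gene lists (493 entries, 489 matched) were chosen with earlier results of these data known. Named regions were the widest 10 at gene ends, 5 inside and 5 outside genes, the 3 of lowest p per direction, the genes and 1 Mb windows with most regions, and listed genes, of which some are not reported here; the 10 kb distance, list genes not at an end and some microRNA regions were chosen after values were seen. Alternatives were other merging, equal list lengths, other end windows, other centring, a pseudocount of 200 bp, a replicate block and each library left out.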

Additional observations from a re-analysis of the deposited data

How the results depend on the processing

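The number of pair 6 only regions was 236 with lists of equal length and 775 to 1261 when each library was left out in turn, highest without 6_C4 replicate 2 (1261) and without 4_1 replicate 1 (1167). Leaving out a library loosens the rule by construction. It was 718 with merging across gaps of 500 bp and 670 with no pair 4 peak allowed within 1000 bp. The share at a gene end was 31.8% with windows of 2500 bp, with 40.2% then inside genes, and 34.3% with all genes of the gene table, with 20% then outside genes. Under the same settings the share of all regions at a gene end was 56.3% and 57.4%. Median width was 2302 bp with lists of equal length, which keep the widest peaks, and 1496 to 1674 bp with each pair 6 library left out.

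No setting gave a region past the limma threshold, among the 741 or among all tested. The median log2 width difference, 6_C4 minus 6_1, was -0.273 without centring, where the median of all regions was also negative at -0.123. It was -0.0247 when only regions in at most 2 pair 4 lists were tested, which centres on those regions, and -0.196 to -0.0408 with each library left out. The summed difference was -393.5 to -219.4 kb with each library left out.

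The labels do not say whether same-numbered libraries were processed together. The correlation of same-numbered deviations over 13951 regions was 0.0445. It cannot settle this, since each library was first centred on its median, which removes shifts of a whole library. With the replicate block there were 0 calls, 117 of the 741 regions narrower and 16 wider at an unadjusted limma p under 0.05, a median of -0.128, and summed differences of -171.1 and -441.8 kb within numbers.

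Near pluripotency genes, counts ran from 4 to 10 of 21 over the alternatives, and near epiblast genes from 4 to 9 of 16. All these alternatives were added after the data were seen. The share of all genes moved with the setting. It was 1.18% with lists of equal length, where both counts were 4. It was 5.68% without 4_1 replicate 1, where the pluripotency count was 10, and 8.65% within 50 kb, where the epiblast count was 9. What limits these results is that peak height and depth are unknown, that presence is a threshold, and that each pair and genotype is 1 clone.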
